A study of Mus musculus with 66 samples.

Results

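The genes described here are 10 genes of the Wnt pathway: the antagonists Apcdd1, Frzb, Sfrp1, Sfrp2 and Sfrp5, the response genes Axin2, Lef1 and Sp5, and the nuclear factors Tcf7l1 and Tcf7l2. They were chosen by name, as the rows with these symbols among the 24410 gene symbols of the table. All 10 were found, and all 10 were among the 15714 genes that had a normalised count of at least 10 in at least 2 libraries. Polyadenylated RNA was sequenced from mouse embryonic stem (ES) cells that had been turned into progenitors of the ventral spinal cord, in 37 WT and 29 MUT libraries. Which gene is mutated in MUT, and which ES line was used, is not given in the sources used here. The domain (p1, p2 or pM), the gate on the glial transcription factor NFIA (NFIAn or NFIAp), the replicate number and the day of differentiation (5, 7, 9 or 11) are given for each library, which gave 26 groups of 1 to 3 libraries. WT cells were NFIAn at D5 and D7, sorted both ways in p2 and pM at D9 (p1 only NFIAn), and NFIAp at D11, whereas all MUT libraries were NFIAn. At D11, genotype and gate therefore cannot be told apart. In WT, day and gate change together from D5 to D11 in every domain, and from D9 to D11 in p1, and cannot be told apart there either. All cells of both genotypes received 10 ng/ml bFGF at plating, 5 µM CHIR99021 from day 2 to day 3, 100 nM retinoic acid from day 3 to day 5, and 10 nM of the Smoothened agonist SAG from day 3 onward. From 10000 to 15000 cells per population were sorted after glyoxal fixation. Nothing in the labels says that replicates came from separate cultures; the p-values then reflect only how far libraries of a group differ, which may be technical.

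Wnt ligands bind Frizzled receptors with an LRP co-receptor, which stops a destruction complex built on Axin and APC from degrading β-catenin. β-catenin then enters the nucleus and joins TCF/LEF factors on DNA, and Axin2, Lef1 and Sp5 are genes that commonly rise when this happens. CHIR99021 inhibits GSK3, the kinase of the destruction complex, and so activates the pathway without a ligand. In the developing spinal cord Wnt ligands are made mostly by the roof plate and dorsal cells, and secreted Frizzled-related proteins (the Sfrp genes and Frzb) and the membrane protein Apcdd1 hold the signal down.

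Recovered reads were 8.738 M in 1 library (MUT D5 p2 replicate 2) and 20.29 to 30.83 M in the others. In 18 libraries, those of replicate 3 at D7 and of replicates 2 and 3 at D9, the normalised counts summed to 26.59 M or more, and in the remaining 48 to 25.5 M or less. The share of ribosomal protein genes was 12.3% ± 3.29 (SD, n = 18) in the former and 7.19% ± 1.97 (SD, n = 48) in the latter. Domain markers matched the labels: in WT, 5 of 6 p1 markers were lower in p2 than in p1, and all 6 pM markers were higher in pM than in p2. Nfia RNA itself was 1.37 ± 0.44 (SE, log2) higher in NFIAp than in NFIAn libraries of WT D9, with an adjusted p of 0.23 in limma.

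Levels can be compared between genes only per length, here as median normalised count per kilobase of exon over all 66 libraries. Sfrp2 stood far above the rest at 4495 per kilobase, followed by Sfrp1 at 626 and Tcf7l2 at 100.7. Frzb had 50.9, Tcf7l1 40.6, Sfrp5 17.9 and Axin2 11.9. Lef1 (6.90), Sp5 (2.49) and Apcdd1 (1.35) were lowest over all libraries. The order changed with time: per kilobase, Lef1 fell from 51.4 in WT at D5 to 3.35 at D11, and Apcdd1 went from 1.21 to 24.6.

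**Figure D1:**
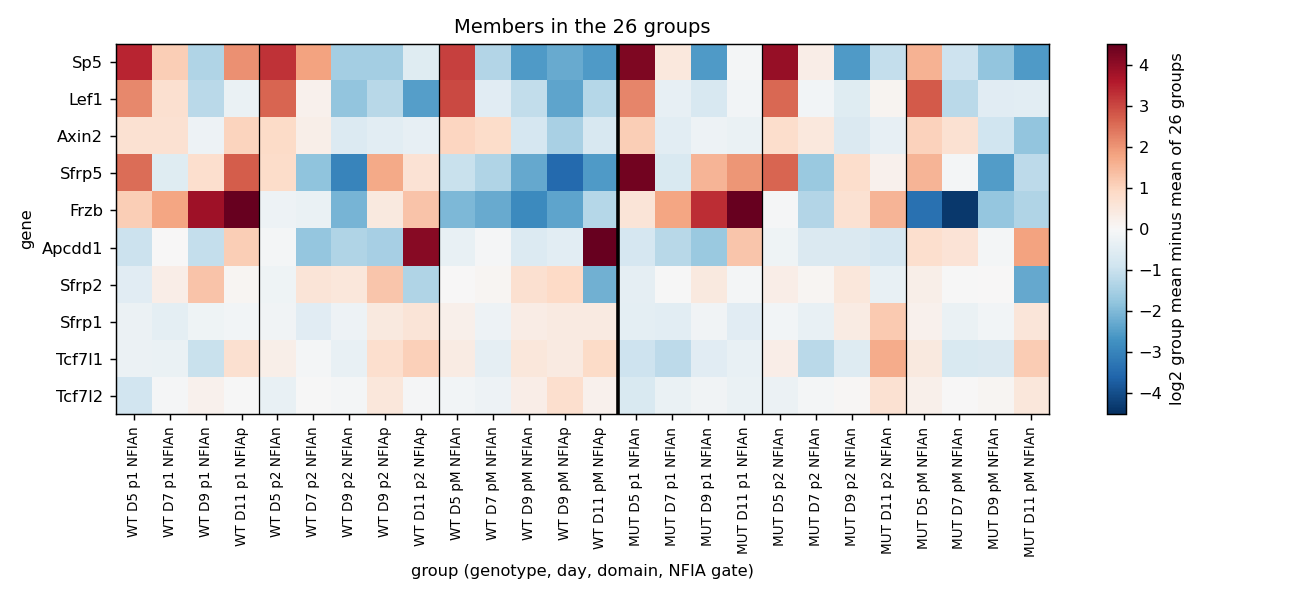
Mean log2(normalised count + 1) of each gene in the 26 groups minus its mean over the groups (colour), with groups ordered by genotype, domain and day and a thick line between WT and MUT. Sp5 and Lef1 are red at D5 in each domain and genotype, Frzb is red in p1, and Apcdd1 is darkest in WT p2 and pM at D11.

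The response genes come first. Sp5, a zinc finger transcription factor, and Lef1, a DNA-binding partner of β-catenin, were highest at D5 in both genotypes and had fallen by D7, and both fell further in WT by D9. Sp5 lies on chromosome 2 (70474923 to 70477729, plus strand, GRCm38) and Lef1 on chromosome 3 (131110471 to 131224356, plus strand). In WT, Sp5 had normalised counts of 20.9 to 133.9 at D5 (median 52.4, n = 8), 0 to 36.5 at D7 (median 8.79, n = 9) and 0 to 2.80 at D9 NFIAn (median 0.669, n = 8). In MUT the range was 10.7 to 208.5 at D5 (median 57.1, n = 9), 0 to 19.1 at D7 (median 4.47, n = 9) and 0 to 1.99 at D9 (median 0, n = 5). The days overlapped in range at D5 and D7, but every D9 library of both genotypes lay below every D5 library of its genotype. The log2 difference from D5 to D7 was -2.73 ± 0.61 (SE, adjusted p = 0.00096) in WT and -3.29 ± 0.59 (adjusted p = 3.1e-05) in MUT, and from D7 to D9 it was -2.34 ± 0.61 (adjusted p = 0.0065) in WT and -2.24 ± 0.72 (adjusted p = 0.039) in MUT.

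By D9 and D11, Sp5 had no read at all in 5 groups: WT D9 pM NFIAn, MUT D9 p1, MUT D9 p2 (1 library), WT D11 pM and MUT D11 pM. With 3 reads per library as the limit that a count of 0 allows, these groups were at least 15.5-fold, 48.4-fold, 38.8-fold, 20.2-fold and 5.66-fold lower than their own D5 groups, in that order. This limit covers counting error only. At D11 the domains stood apart in WT: Sp5 was at 15.1 and 36.2 in p1, 0 and 14.9 in p2, and 0 and 0 in pM. Only p1 had reads in both libraries, and the p1 values lay above all 4 of p2 and pM. The difference of p2 and pM from p1, a comparison added after the values were seen, did not pass the test (log2 -3.61 ± 1.08, adjusted p = 0.070). At the same log2 difference it passed with the replicate number as a block, additive (0.043) or as a correlation (0.0077).

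Lef1 ranged from 277 to 619 in WT at D5 (median 452, n = 8), from 23.1 to 159 at D7 (median 76.4, n = 9) and from 14.3 to 61.6 at D9 NFIAn (median 24.7, n = 8). In MUT it ranged from 251 to 673 at D5 (median 419, n = 9), from 7.08 to 93.8 at D7 (median 67.1, n = 9) and from 29.7 to 59.6 at D9 (median 47.2, n = 5). No D7 library of either genotype reached any D5 library, so the D5 and D7 ranges did not overlap. The log2 difference from D5 to D7 was -2.45 ± 0.35 in WT (adjusted p = 8.0e-07) and -3.07 ± 0.34 in MUT (adjusted p = 9.9e-10). From D7 to D9 Lef1 fell in WT (log2 -1.50035 ± 0.35, adjusted p = 0.0024), and in MUT the difference was -0.04 ± 0.42 (adjusted p = 0.98). The difference between genotypes in this step was not tested.

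Axin2 is a scaffold of the destruction complex and a feedback inhibitor of the pathway, and it lies on chromosome 11 (108920349 to 108950783, plus strand). Its range was narrower than that of Sp5 and Lef1. In WT it had 60.6 to 148.7 at D5 (median 86.5), 49.5 to 131.5 at D7 (median 73.5) and 23.1 to 70.5 at D9 NFIAn (median 36.1). It fell in WT from D7 to D9 (log2 -1.12 ± 0.28, adjusted p = 0.0044), and from D5 to D7 the WT difference was -0.26 ± 0.28 (adjusted p = 0.57). In MUT it went from 80.1 to 140.1 at D5 (median 111) to 17.2 to 102 at D7 (median 65.9), a log2 difference of -0.76 ± 0.27 (adjusted p = 0.030) with overlapping ranges.

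Counted over the 10 genes, 3 fell and 0 rose in WT from D5 to D7, while 19.6% of all tested genes were called, 9.51% lower and 10.0% higher. In limma, 4 of the 10 had an unadjusted p under 0.05 in this step, and edgeR called 3 and DESeq2 4. DESeq2 added Sfrp2, which rose (log2 0.57, adjusted p = 0.033). From D7 to D9, 3 fell and none rose in WT, against 14.4% of all genes called (8.09% lower, 6.30% higher). In MUT 4 of 10 fell from D5 to D7 and none rose, against 30.8% called (14.3% lower, 16.5% higher). From D7 to D9 in MUT Sp5 fell and Frzb rose, against 9.71% called (4.78% lower, 4.93% higher). The median log2 difference of the 10 genes in WT from D5 to D7 was -0.29, beside -0.02 over all tested genes.

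Markers of neurons moved over the same days. From D5 to D7, 9 of 10 neuron markers rose in each genotype, and their summed normalised count went from 1897 to 13380 in WT at D5 to 10350 to 51290 at D7. Their part in the fall of Sp5 and Lef1 was not tested. In these sorted populations fewer cells of a type and less RNA per cell cannot be told apart.

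The call for Sp5 from D7 to D9 in WT ended without the 18 libraries of high total (log2 -1.92, with 1 library left in each WT D9 group). With the replicate number as a correlation block, the limma calls of this WT step ended for Sp5 (log2 -2.41, adjusted p = 0.080), Lef1 (-1.55, 0.064) and Axin2 (-1.08, 0.11). The Sp5 call held at 0.0032 to 0.031 with the other pseudocount, filter, scaling, set of groups or tool. In MUT the Sp5 call of this step ended with a pseudocount of 8 (log2 -0.73, adjusted p = 0.24) and with that correlation (0.26). It also ended with only the compared groups in the fit (0.071) and without any 1 of 7 libraries. These were MUT D7 p1 replicate 3, p2 replicates 1 and 3 and pM replicate 2, and MUT D9 p1 replicates 1 and 3 and pM replicate 3 (log2 -2.24 to -1.91, adjusted p up to 0.12). The call for Axin2 in MUT from D5 to D7 ended without the 18 libraries (log2 -0.57, adjusted p = 0.16) and with that correlation (-0.76, 0.19). It also ended without any 1 of 7: MUT D5 p1 replicates 2 and 3, p2 replicate 3 and pM replicate 2, and MUT D7 p1 replicate 3, p2 replicate 3 and pM replicate 2 (log2 -0.72 to -0.58, adjusted p up to 0.11).

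**Figure D2:**
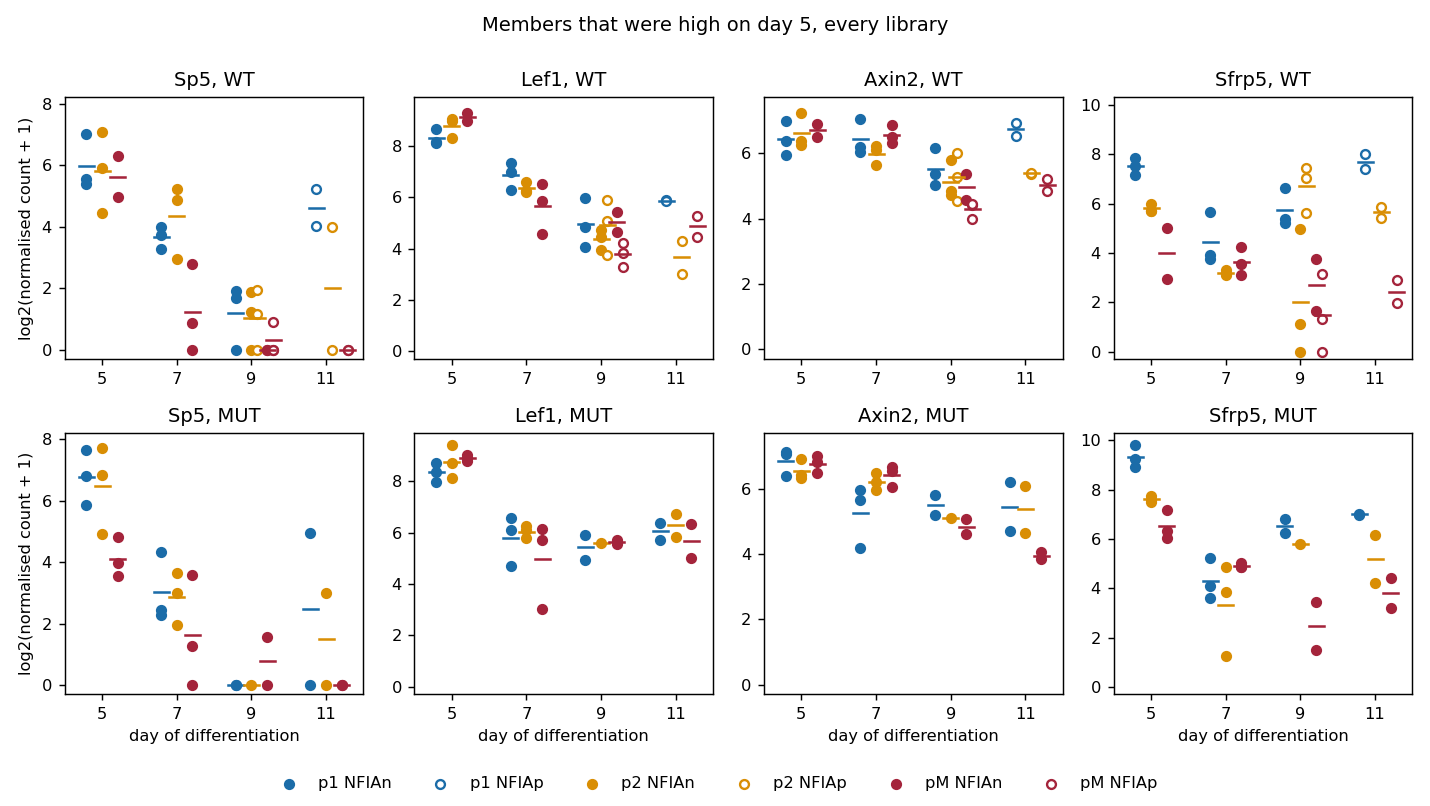
log2(normalised count + 1) of Sp5, Lef1, Axin2 and Sfrp5 in every library by day, with WT above and MUT below, colours for domains, open symbols for NFIAp and bars for group means. Sp5 and Lef1 drop from D5 to D9 in each domain, while Sfrp5 in p1 drops at D7 and is back at 170.1 and 254.6 in WT at D11.

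Sequence upstream of 8 of the 10 genes was found in RefSeq (GRCm38.p6), in 12 windows of the 250 bases before a start. TCF/LEF factors bind the core CTTTGAA or CTTTGAT, which was searched on both strands. Of all 32851 windows, 7.479% held a match, and among the genes described here only Sp5 did. The Sp5 window (chr2:70474673-70474922, plus strand) is shown because it holds the match, with the 7 matching bases in capitals, the first of them 104 bases before the start. The window of Axin2 (chr11:108920099-108920348, plus strand) is shown for comparison and holds no match. A match is a description of the letters, not a bound site.
Sp5: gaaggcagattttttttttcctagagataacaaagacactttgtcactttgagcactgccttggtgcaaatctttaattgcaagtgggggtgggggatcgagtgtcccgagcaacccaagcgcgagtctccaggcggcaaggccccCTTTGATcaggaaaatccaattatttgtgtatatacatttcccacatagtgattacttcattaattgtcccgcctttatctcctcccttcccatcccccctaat
Axin2: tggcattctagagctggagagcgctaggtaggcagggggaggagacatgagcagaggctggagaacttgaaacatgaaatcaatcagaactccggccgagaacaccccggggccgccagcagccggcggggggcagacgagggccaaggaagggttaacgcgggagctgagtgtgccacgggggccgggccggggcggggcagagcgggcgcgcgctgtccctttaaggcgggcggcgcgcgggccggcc

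Tcf7l1, which mostly acts as a repressor of Wnt targets, and Tcf7l2, a main nuclear partner of β-catenin in many tissues, were called in none of the 30 comparisons with all libraries and groups in limma. Tcf7l1 lies on chromosome 6 (72626378 to 72789254, minus strand) and Tcf7l2 on chromosome 19 (55741820 to 55933654, plus strand). Tcf7l2 ranged from 391 to 825 in WT at D5 (median 714, n = 8) and from 554 to 1200 at D7 (median 909.5, n = 9), and the log2 difference was 0.34 ± 0.20 (adjusted p = 0.22). Without the 18 libraries of high total that difference was 0.59 (adjusted p = 0.031), and Tcf7l2 was then also called in WT p1 from D5 to D11 (0.84, 0.039). In WT NFIAp from D9 to D11 its difference was then -1.12, with 1 library left in each D9 group. The p1 change was also called without WT D5 p1 replicate 2 (adjusted p = 0.032). Tcf7l1 differed widely between replicates of some groups: WT D9 pM NFIAp held 118, 859 and 106. In each of the 6 groups of D7 the replicate of high total, replicate 3, had the lowest Tcf7l1, the lowest Sfrp1 and the lowest Sfrp2 of its group. An antisense gene inside Tcf7l1, Gm15401, had at most 8.04 normalised counts. Annotated antisense genes also overlap Sfrp2, Axin2 and Lef1, and the labels do not state whether counting used strand, so reads of such pairs cannot be told apart.

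The antagonists followed other courses, and Frzb had the strongest domain pattern. Frzb, a secreted protein with the Wnt-binding domain of Frizzled receptors, lies on chromosome 2 (80411970 to 80447625, minus strand). In WT p1 it had 442, 286 and 434 at D5, 751, 519 and 576 at D7, 3280, 2086 and 2234 at D9, and 5554 and 4003 at D11. Each day lay above the day before without overlap. The p1 step from D7 to D9 was tested in comparisons added after the values were seen. In WT the log2 difference was 2.03 ± 0.80, which did not pass in limma (adjusted p = 0.16) but did in DESeq2 (0.039). In MUT p1 it was 1.54 ± 0.90 (adjusted p = 0.53 in limma). In WT p2 the values were 196, 128 and 138 at D5 and 334.5 and 543 at D11, and in WT pM they were 34.2 and 51.8 at D5 and 55.7 and 93.7 at D11. At D5 and at D11 p1 lay above p2 and p2 above pM without overlap. At D9 NFIAn p1 again lay above the rest, but p2 (23.2, 154 and 17.4) overlapped with pM (19.9 and 26.5).

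Over the 4 days Frzb was lower in p2 than in p1, with log2 differences of -3.20 ± 0.43 in WT (adjusted p = 1.2e-06) and -2.35 ± 0.48 in MUT (adjusted p = 0.0052). It was also lower in pM than in p2, with log2 differences of -1.78 ± 0.45 in WT (adjusted p = 0.017) and -2.92 ± 0.48 in MUT (adjusted p = 6.0e-05). At D11 in WT, p2 and pM together lay below p1 (log2 difference -4.74 ± 0.85, adjusted p = 0.00051), a comparison added after the values were seen. The rise in WT p1 from D5 to D11 was 3.63 ± 0.90 (adjusted p = 0.0016). In WT p2 the difference was 1.49 ± 0.90 (adjusted p = 0.23, and 0.040 with only the compared groups), and in WT pM 0.77 ± 0.98 (0.66). A limma F test of whether this WT change differed between domains did not pass (F = 2.61, adjusted p = 0.86). MUT p1 held 366, 244 and 202 at D5, 2610 and 1204 at D9, and 4088 and 4182 at D11, so the D11 libraries of MUT fell within the WT range. MUT against WT at D11 gave -0.01 ± 0.57 for Frzb over the 3 domains (adjusted p = 1.0).

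Between NFIA gates at D9, p2 held 91.4, 377 and 408 in NFIAp against 23.2, 154 and 17.4 in NFIAn. The gate difference over p2 and pM was 1.54 ± 0.60 and did not pass the test (adjusted p = 0.40). Sfrp5, described next, had 48.8, 172.8 and 131.7 in NFIAp and 30.4, 1.16 and 0 in NFIAn of p2, without overlap, and in pM its gates overlapped. Its gate difference was 1.74 ± 0.64 (adjusted p = 0.34), and without WT D9 p2 NFIAn replicate 1 it was 2.47 and passed the test (0.035). With all libraries none of the 10 genes was called between gates in limma, edgeR or DESeq2, 3 had an unadjusted p under 0.05 in limma, and 0.204% of all genes were called (0.146% higher, 0.0573% lower).

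Sfrp5, a secreted antagonist of the same family on chromosome 19 (42197971 to 42202252, minus strand), was highest in p1 at D5 and D11 and also fell early. In WT it had 183, 142 and 233 in p1 at D5, 51.8, 51.0 and 62.8 in p2, and 6.65 and 31.7 in pM. The domains did not overlap at D5. By D7 it was at 14.1, 12.6 and 49.2 in p1 and between 7.61 and 17.9 in p2 and pM, and by D11 it had 255 and 170.1 in p1, 58.0 and 42.4 in p2 and 2.93 and 6.41 in pM. Between these days, at D9, the order differed: p2 NFIAp (48.8, 172.8 and 131.7) overlapped with p1 NFIAn (99.0, 41.0 and 36.7) and had the highest libraries. From D5 to D7 the log2 difference was -2.01 ± 0.51 in WT (adjusted p = 0.0036) and -3.63 ± 0.49 in MUT (adjusted p = 1.4e-07), where no D7 library reached any D5 library. The WT call of this step ended with the replicate number as a correlation block (adjusted p = 0.077 in limma).

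Sfrp5 was lower in p2 than in p1 in WT (log2 -2.18 ± 0.45, adjusted p = 0.0027). At D11 its p2 and pM values lay below p1 (log2 -3.66 ± 0.90, adjusted p = 0.018), in a comparison added after the values were seen. The MUT difference of p2 from p1 was -1.31 ± 0.51 (adjusted p = 0.37). In WT, 2 of the 10 genes, Frzb and Sfrp5, were called between p2 and p1, both lower, where 1.83% of all genes were called (0.554% lower, 1.28% higher). Between pM and p2 of WT, 1 was called in limma, Frzb, where 2.46% of all genes were (1.77% lower, 0.687% higher). DESeq2 called 2 of the 10 there, with Sp5 also lower in pM (log2 -2.99, adjusted p = 0.023). Sp5 was also called with the replicate number as a correlation block in limma (-1.70, 0.020). Without the 18 libraries of high total, with 1 library left in each WT D9 group, the Sfrp5 difference of pM from p2 was -1.90. In MUT Frzb was the only one of the 10 called in each comparison, and with only the compared groups Sfrp2 was also lower in pM than in p2 (log2 -0.64, adjusted p = 0.038). The share of all genes called in MUT was 0.598% between p2 and p1 (0.216% lower, 0.382% higher) and 3.26% between pM and p2 (1.75% lower, 1.51% higher). In the added comparison at D11 in WT, Frzb, Sfrp2 and Sfrp5 were lower in p2 and pM than in p1, against 1.88% of all genes called (0.916% lower, 0.967% higher).

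Markers of the roof plate and dorsal cord followed the same order. In WT, 7 of 13 such markers were lower in p2 than in p1 and none was higher, among them Wnt3a (-2.40 ± 0.60) and Msx1 (-1.68 ± 0.34). Their summed count was 1227 to 8681 in WT p1, 171 to 2684 in p2 and 56.9 to 1178 in pM, and none of the 13 was at 0 throughout. The part of more dorsal cells in the Frzb and Sfrp5 differences was not tested.

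The call for Frzb in pM against p2 of WT ended without the 18 libraries (log2 -1.41, adjusted p = 0.094) and without WT D11 p2 replicate 3 (-1.69, 0.057), WT D11 pM replicate 2 (-1.69, 0.065) or WT D5 pM replicate 2 (-1.71, 0.055). At D11 the Frzb and Sfrp5 calls ended with only the compared groups in the fit (adjusted p = 0.11 and 0.18), and that of Sfrp5 also without WT D11 p1 replicate 2 (-3.37, 0.12), p1 replicate 3 (-3.95, 0.085) or pM replicate 2 (-3.43, 0.063). The rise of Frzb in MUT from D7 to D9 (log2 2.05 ± 0.57, adjusted p = 0.014) ended as a call with only the compared groups (0.12). It also ended with the replicate number as a correlation block (0.13) and without MUT D9 p1 replicate 1 (1.86, with 1 library left in that group).

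**Figure D3:**
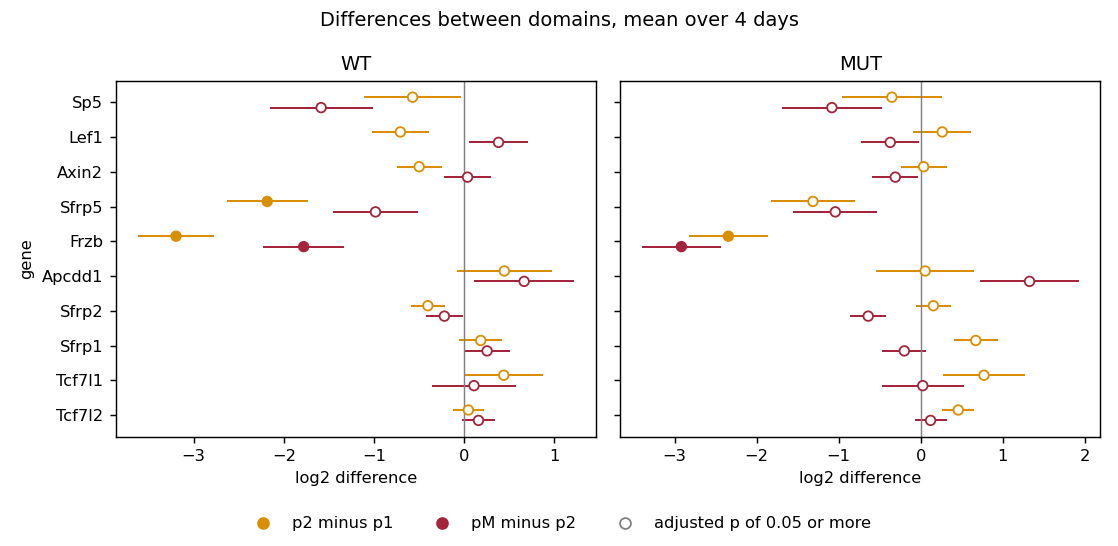
log2 difference ± SE of each gene between neighbouring domains over the 4 days, WT at left and MUT at right, with filled points for an adjusted p under 0.05. Frzb is the only gene filled in all 4 comparisons, from -1.78 to -3.20.

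Apcdd1, a membrane glycoprotein that inhibits Wnt signalling at the cell surface, is encoded on chromosome 18. It stayed low until D9 and was high only at D11, in WT p2 and pM. WT p2 held 7.51, 41.8 and 0 at D9 NFIAp and 474.5 and 252 at D11, and WT pM held 23.5, 38.9 and 2.10 at D9 NFIAp and 381 and 589 at D11. All 4 D11 libraries lay above all 6 at D9, and WT p1 at D11 had 52.9 and 34.4. From D9 to D11 Apcdd1 rose by 5.32 ± 0.79 on the log2 scale over p2 and pM (adjusted p = 4.8e-06), and from D5 to D11 by 4.19 ± 1.12 in p2 (adjusted p = 0.0038) and 4.90 ± 1.22 in pM (adjusted p = 0.0025).

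In WT p1 the D5 to D11 difference was 2.08 ± 1.12 (adjusted p = 0.17), with D5 values of 13.0, 25.8 and 1.96 below both D11 values. In the comparison added after the values were seen, p2 and pM at D11 stood 3.22 ± 1.06 above p1, without overlap but short of the threshold (adjusted p = 0.11). It passed with a pseudocount of 8 (0.0012), without the 18 libraries (0.016) and in DESeq2 (0.024). In the F test of whether the WT change from D5 to D11 differed between domains, Apcdd1 had F = 1.63 (adjusted p = 1.0).

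The MUT libraries at D11 held 14.2 and 8.37 in p2, 65.9 and 74.9 in pM and 23.9 and 92.6 in p1. In p2 and pM each MUT library lay below each WT library, and in p1 the genotypes overlapped. Over the 3 domains Apcdd1 was lower in MUT (log2 -2.48 ± 0.71, adjusted p = 0.030), the only one of the 10 genes called in this comparison, where 4.14% of all genes were called, 1.80% higher and 2.34% lower. The Apcdd1 call ended with the replicate number as a correlation block (log2 -2.48, adjusted p = 0.41 in limma). By domain, in comparisons added after the values were seen, the differences were -4.86 ± 1.22 in p2 (adjusted p = 0.073), -2.74 ± 1.22 in pM (0.34) and 0.15 ± 1.22 in p1 (1.0). The p2 difference passed with DESeq2 (0.0042), without the 18 libraries (0.0060), with a pseudocount of 8 (0.00036) and with no filter (0.046), and that of pM with a pseudocount of 8 (0.038). The test of p2 and pM against p1 in this difference gave -3.94 ± 1.498 (adjusted p = 0.75), and the genotype difference in the change from D5 to D11 gave -2.89 ± 0.93 (adjusted p = 0.17, with 0.0067 at a pseudocount of 8 and 0.027 without the 18 libraries).

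Astroglia markers moved with Apcdd1 in both comparisons. From D9 to D11 in WT NFIAp, 6 of 9 tested markers rose and none fell, among them Aldh1l1 (4.81 ± 0.82) and Slc1a3 (1.65 ± 0.27), and their summed count was 55490 to 112200 at D9 and 84040 to 194800 at D11. In MUT against WT at D11, 6 of 9 were lower, with sums of 26830 to 85370 against 74120 to 194800. Mesenchyme markers rose in 4 of 11 cases over the same WT step, with sums of 182 to 3485 at D9 and 1373 to 7793 at D11. Their part in the Apcdd1 values was not tested.

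The rise from D9 to D11 over both domains kept its call in all 9 alternatives and without any 1 library, with log2 differences up to 5.96. Without the 18 libraries the log2 difference was 3.30, with only 1 library left in each D9 NFIAp group. In single domains the call ended in that fit (log2 3.02 in p2 and 3.57 in pM). It also ended with only the compared groups (0.33 and 0.23), in p2 without WT D11 p2 replicate 2 (5.15, 0.10) or WT D9 p2 replicate 3 (4.18, 0.060), and in pM without WT D11 pM replicate 3 (4.72, 0.065) or WT D9 pM replicate 3 (3.92, 0.055). From D5 to D11 the call ended in p2 without WT D11 p2 replicate 2 (3.73, 0.067) and in pM without WT D5 pM replicate 3 (4.15, 0.057). MUT against WT at D11 lost its call without any 1 of 8 libraries: MUT p1 replicate 2, p2 replicate 3 and pM replicates 2 and 3, and WT p1 replicate 2, p2 replicate 2 and pM replicates 2 and 3 (-2.59 to -2.17, adjusted p up to 0.10).

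**Figure D4:**
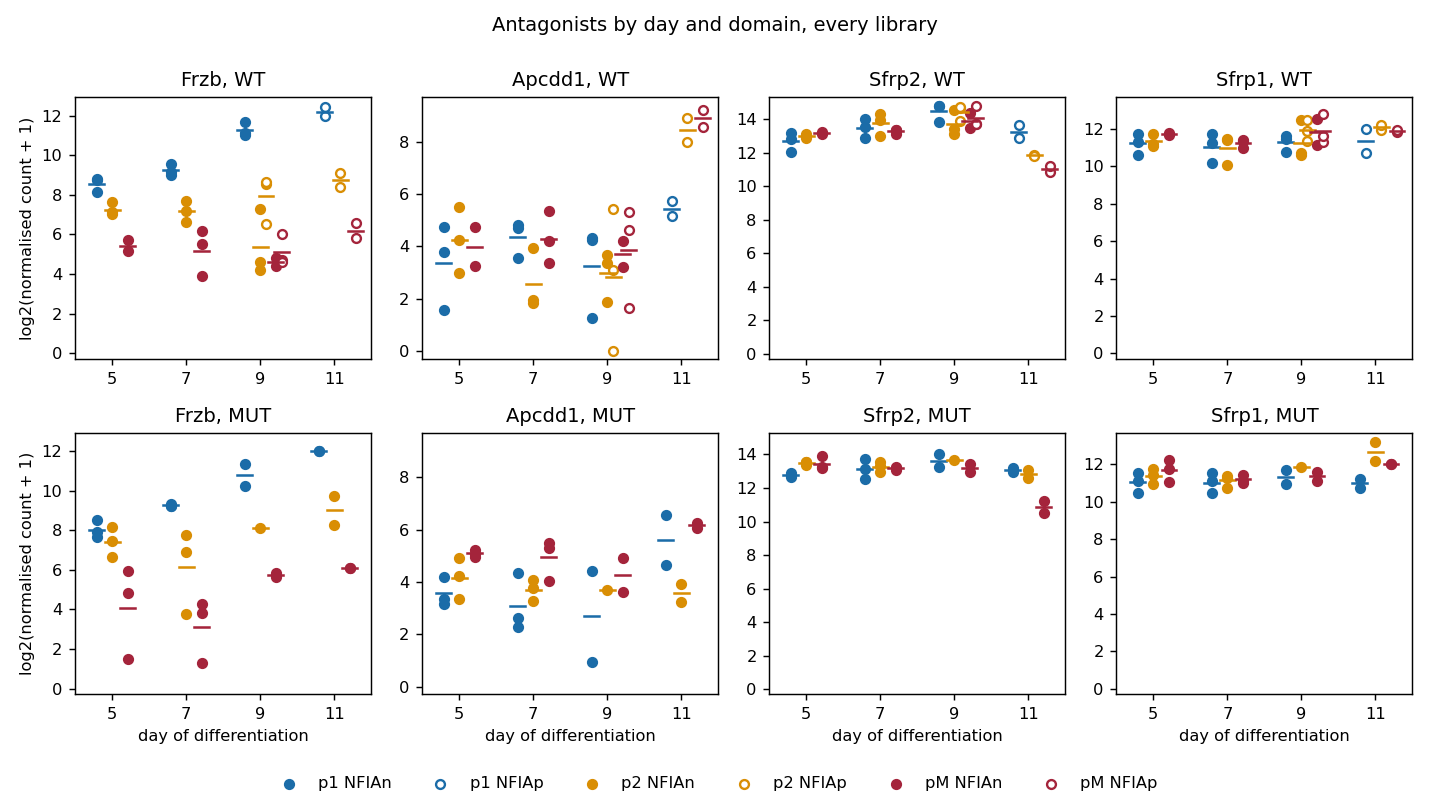
log2(normalised count + 1) of Frzb, Apcdd1, Sfrp2 and Sfrp1 in every library by day, with WT above and MUT below, colours for domains, open symbols for NFIAp and bars for group means. WT p2 and pM at D11 are high in Apcdd1 (252 to 589) and low in Sfrp2 (1825 to 3712).

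Sfrp2, the most abundant of the 10 per length, encodes a secreted Frizzled-related protein and lies on chromosome 3 (83766321 to 83774316, plus strand). Its highest values were at D9 in WT, and by D11 its WT values were lower in all 3 domains, lowest in p2 and pM. In WT the log2 difference was 0.54 ± 0.22 from D5 to D7 (adjusted p = 0.070) and 0.52 ± 0.22 from D7 to D9 (0.10). The first of these passed in DESeq2 (0.033) and without the 18 libraries of high total (0.80, 0.00079). Without them the second was 0.79, with 1 library left in each WT D9 group. WT p2 went from 15330, 25490 and 27450 at D9 NFIAp to 3712 and 3564 at D11, and WT pM from 13270, 28160 and 13230 to 1825 and 2375. WT p1 had 28020, 28600 and 14440 at D9 NFIAn and 7409 and 12820 at D11, also without overlap, and there the gate changed along with the day. Every D11 library of p2 and pM lay below every D9 NFIAp library, and the log2 difference was -2.82 ± 0.29 (adjusted p = 8.9e-10).

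From D5 to D11 it fell in WT p2 (log2 -1.16 ± 0.40, adjusted p = 0.028) and in WT pM (log2 -2.17 ± 0.44, adjusted p = 0.00023), and in WT p1 the difference was 0.58 ± 0.40 (adjusted p = 0.31). The F test found that this change differed between domains (F = 11.0, adjusted p = 0.019). Sfrp2 was the only one of the 10 genes called there, where 0.891% of all genes were. At D11 p2 and pM lay below p1 with no overlap (log2 -1.82 ± 0.38, adjusted p = 0.0035), in a comparison added after the values were seen.

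In MUT the log2 difference from D9 to D11 was -1.23 ± 0.28 (adjusted p = 0.0027). MUT pM dropped from 11220 and 7824 to 1488 and 2354, whereas MUT p1 went from 16400 and 9678 to 9535 and 8089. MUT p2 held 13080 at D9 in its lone library and 6199 and 8504 at D11. At D11 both MUT p2 values lay above the WT p2 values of 3712 and 3564, but the difference of 1.00 ± 0.44 did not pass the test (adjusted p = 0.71). In pM the genotypes overlapped. Of the 10 genes, 1 rose (Apcdd1) and 1 fell (Sfrp2) from D9 to D11 in WT NFIAp, where 10.1% of all genes were called (6.16% higher, 3.98% lower). In MUT Sfrp2 alone was called, against 9.19% of all genes (3.67% lower, 5.52% higher). Within p2 of WT NFIAp the same step called Apcdd1 and Sfrp2 against 1.63% of all genes, and within pM the same pair against 4.14%. These single-domain comparisons were added after the values were seen.

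The Sfrp2 call of WT p2 from D5 to D11 ended without either D11 library (-1.19, 0.12 without replicate 2, and -1.13, 0.13 without replicate 3) and without WT D5 p2 replicate 1 (-1.11, 0.068) or 2 (-1.15, 0.062). The F test missed the threshold with only the compared groups (0.055). It also missed it without WT D11 p1 replicate 3 (F = 6.16, adjusted p = 0.19), WT D11 pM replicate 2 (8.30, 0.11), WT D5 p1 replicate 1 (7.95, 0.10), WT D5 pM replicate 2 (9.41, 0.058) or WT D5 pM replicate 3 (8.85, 0.073). At D11 the call of p2 and pM against p1 ended without WT D11 p1 replicate 3 (-1.43, 0.17) and with only the compared groups (0.19). The MUT call from D9 to D11 ended with only the compared groups (0.054), as did the WT calls within p2 (0.11) and within pM (0.099).

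**Figure D5:**
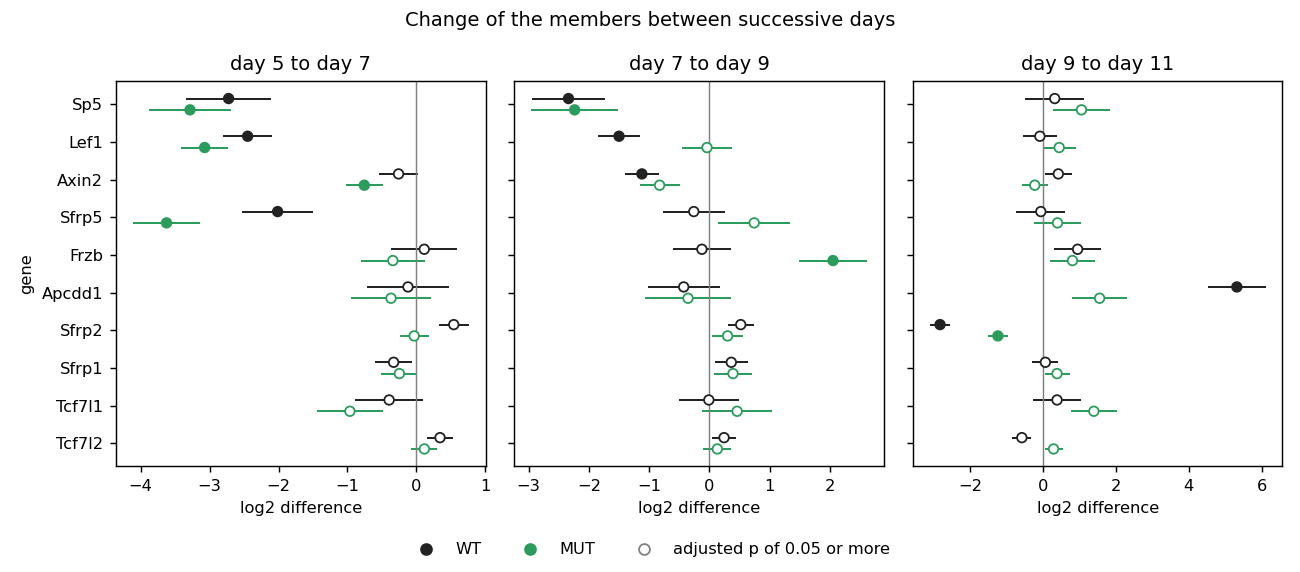
log2 difference ± SE of each gene between successive days, WT in black and MUT in green, with filled points for an adjusted p under 0.05; in WT the last step compares NFIAp libraries of p2 and pM, in MUT NFIAn libraries of all 3 domains. The response genes lie left of 0 in the first step, and Apcdd1 in WT lies at 5.32 in the last.

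Sfrp1, a close relative of Sfrp2 and Sfrp5, was called in none of the comparisons in limma. It is on chromosome 8 (23411502 to 23449632, plus strand). Over all 66 libraries it ranged from 1096 to 9412. In WT it had 1567 to 3497 at D5 (median 2900), 1096 to 3345 at D7 (median 2648) and 1669 to 4757 at D11 (median 3971), and these ranges overlap. MUT p2 at D11 held the highest library of all, 9412, beside 4587 in the other.

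The change over the whole course, D5 to D11, was also taken within each WT domain, where the gate goes from NFIAn to NFIAp along with the day. In p1, 2 of the 10 genes were called: Frzb rose and Lef1 fell, beside 27.7% of all genes called (14.0% higher, 13.7% lower). In p2 Apcdd1 rose and Lef1, Sfrp2 and Sp5 fell, beside 25.8% (14.2% higher, 11.5% lower). In pM Apcdd1 rose and Axin2, Lef1, Sfrp2 and Sp5 fell, beside 20.4% (10.7% higher, 9.69% lower). Lef1 was thus called in each domain, with log2 differences of -2.45 ± 0.66 in p1, -5.10 ± 0.66 in p2 and -4.26 ± 0.72 in pM; the F test of a difference between domains gave an adjusted p of 0.49. Sp5 in pM fell to 0 in both D11 libraries from 30.4 and 77.3 (adjusted p = 0.00067), and in p1 the difference was -1.37 ± 1.14 (adjusted p = 0.40).

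Axin2 in pM went from 119 and 90.4 at D5 to 36.2 and 28.03 at D11 (-1.67 ± 0.57, adjusted p = 0.031). Its call ended with the replicate number as a correlation block (-1.61, adjusted p = 0.054 in limma). That call ended without any 1 of the 4 libraries, WT D11 pM replicates 2 and 3 and WT D5 pM replicates 2 and 3 (-1.87 to -1.48, adjusted p up to 0.19), and with only the compared groups (0.11). In p1 Axin2 had 122 and 91.4 at D11, within the D5 range of 60.6 to 126.3. The Sp5 call in p2 (-3.82 ± 1.14, adjusted p = 0.010) ended with edgeR (0.11), DESeq2 (0.058) and only the compared groups (0.13), and without WT D11 p2 replicate 2 (-1.82, 0.42) or WT D5 p2 replicate 3 (-3.18, 0.061).

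Between genotypes few of the 10 genes differed. At D5 Sfrp5 was higher in MUT, where p1 held 488, 604 and 903 against 183, 142 and 233 in WT, p2 held 179, 193 and 212 against 51.8, 51.0 and 62.8, and pM held 65.1, 78.3 and 144.5 against 6.65 and 31.7. Within each domain every MUT library lay above every WT library. The log2 difference was 2.05 ± 0.51 with an adjusted p of 0.049, the only one of the 10 called, and 0.458% of all genes were called (0.172% higher, 0.286% lower). That call lay at the threshold in the main fit. It ended with the replicate number as a correlation block (log2 2.05, adjusted p = 0.90 in limma) and with no filter on low values (0.056). It also ended without any 1 of 16 of the 17 libraries of D5 (log2 1.70 to 2.13, adjusted p up to 0.10 with at least 2 libraries in each group). It held only without WT D5 pM replicate 3, which leaves 1 library in that group.

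At D7 none of the 10 was called in limma, edgeR or DESeq2, with 2 at an unadjusted p under 0.05, where 2.03% of all genes were called (0.776% higher, 1.25% lower). At D9 among NFIAn libraries none was called by any of these tools, with 1 at an unadjusted p under 0.05 (0.700% of all genes called, 0.356% higher and 0.344% lower). None was called in the genotype difference of the change from D5 to D11 by any of the 3 tools, with 4 at an unadjusted p under 0.05 (0.770% of all genes called, 0.293% higher and 0.477% lower). Lef1 at D11 in p2 was at 56.6 and 105 in MUT and 7.13 and 18.9 in WT, without overlap, with a difference of 2.62 ± 0.72 (adjusted p = 0.15, and 0.037 in DESeq2). Over the 3 domains the Lef1 difference at D11 was 1.21 ± 0.42 (adjusted p = 0.093, and 0.023 in DESeq2).

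Other genes of the pathway, from lists written with earlier results of these data known, were counted beside the 10. Of 23 tested further response genes, 9 fell and 2 rose in WT from D5 to D7 (15 fell and 2 rose in MUT), with a median log2 difference of -0.81 (-1.74 in MUT) beside -0.02 (-0.03) over all genes. The falls were led by Cdx1 (-4.36 ± 0.45) and Cdx2 (-4.23 ± 0.39), which encode factors of posterior identity, and by Tcf7 (-1.73 ± 0.53), a relative of Lef1. Fgf8 rose (2.03 ± 0.59).

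Ligands changed in both directions over the same days, in which 9.51% of all genes fell and 10.0% rose in WT and 14.3% and 16.5% did in MUT. Wnt7a and Wnt7b, ligands of the neural tube, rose in WT by 4.33 ± 0.27 and 4.11 ± 0.46 and in MUT by 4.39 ± 0.26 and 3.73 ± 0.44, in a list of 18 where 2 rose and 3 fell in WT (2 and 5 in MUT). Of 16 receptors and co-receptors, 5 fell and none rose in WT and 6 fell and none rose in MUT, among them Fzd7 (-1.38 ± 0.22 in WT) and the co-receptor Lrp6 (-0.98 ± 0.20). Wls, which carries Wnt proteins to the cell surface, fell by 0.75 ± 0.15 in WT. Of 12 membrane and feedback inhibitors 2 rose and 2 fell in WT, led by Shisa3 (3.77 ± 0.32), an inhibitor of Frizzled maturation.

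From D9 to D11 in WT NFIAp, Wls (1.21 ± 0.19) and Porcn (1.08 ± 0.17), the enzyme that adds the lipid to Wnt proteins, rose, as 2 of 8 genes of ligand release and agonists, in a step where 6.16% of all genes rose. Of 11 other secreted antagonists, 1 rose, Wif1 (3.77 ± 1.03), which binds Wnt proteins outside the cell. Nkd2 (-2.39 ± 0.48), which binds dishevelled, and Shisa3 (-2.10 ± 0.42) fell. Against WT at D11, Wif1 was lower in MUT (-3.55 ± 0.92, adjusted p = 0.015) and Nkd2 higher (2.56 ± 0.43, adjusted p = 0.0001). The genotype difference in the change from D5 to D11 was called for Nkd2 (2.45 ± 0.57, adjusted p = 0.019) and, with a more positive change in MUT, for Igfbp4 (1.01 ± 0.22, adjusted p = 0.0091), and was -3.51 ± 1.21 for Wif1 (adjusted p = 0.24). Igfbp4, a secreted antagonist, was lower in MUT at D5 (-0.76 ± 0.14) and at D7 (-0.86 ± 0.14).

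Among 11999 genes, those most like each of the 10 were ranked by Pearson's r of log2 group means over the 26 groups, as a description only, since all points share libraries and days. Lef1 was most like Luzp1 (r = 0.93). Frzb was most like Fat4 (0.911) and Dbx1 (0.891), the latter a p1 marker. Apcdd1 was closest to Slc14a2 (0.868), Sfrp2 to Hmgb1 (0.868), Axin2 to Zfp217 (0.855), Tcf7l2 to Tox2 (0.844), Sfrp5 to Lamb1 (0.825), Sfrp1 to Ptms (0.825) and Tcf7l1 to Gnao1 (0.814). Within the 10, r was 0.83 between Sp5 and Lef1, 0.80 between Sp5 and Axin2, 0.81 between Sfrp1 and Tcf7l1 and -0.76 between Apcdd1 and Sfrp2.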

How the data were processed

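The deposited table holds a normalised count signal per gene and library, made by the authors with DESeq2 on mm10, per the submitters' processing notes; the aligner, counter, strand setting and versions are not given in the sources used here. Whole reads could be recovered from the values of all 66 libraries. The 10 genes and the gene lists were chosen with earlier results of these data known. Values were taken as log2(normalised count + 1), genes with at least 10 in at least 2 libraries were kept (15714), and limma 3.58.1 (R 4.3.3) with a trended prior was fitted to the 26 group means over all libraries. A call is a Benjamini-Hochberg adjusted p under 0.05 over all tested genes, and every adjusted p in the text is from limma unless another tool is named. The 20 comparisons of the design and 10 added after the values were seen were fitted. The added ones include p2 and pM against p1 in WT at D11 and MUT against WT at D11 by domain. They also include the WT NFIAp step from D9 to D11 within p2 and within pM. Their p-values rest on the libraries in which the patterns were seen. Alternatives were edgeR 4.0.16 and DESeq2 1.42.0 on the recovered reads, TMM scaling, no filter on low values, a pseudocount of 8, only the compared groups, the replicate number as a block in 2 ways, removal of 18 libraries of high total, and removal of each library in turn. The fit was tested on simulated data in which libraries of the same number did not deviate together. Calls that a replicate block changed are listed in the closing section. Named pathway genes were up to 4 called genes per list and comparison with the largest difference and a group mean of at least 50. Genes of like pattern were ranked by correlation of group means; the ranking for Sp5 is not reported here. Figures were drawn with matplotlib 3.10.9. Promoter windows are from RefSeq.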

Additional observations from a re-analysis of the deposited data

Results flagged for a closer look

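Sfrp2 was set apart because its change from D5 to D11 in WT differed between the 3 domains by a test of that difference itself (limma F test, F = 11.0, adjusted p = 0.01879). In p1 the log2 difference was 0.58 ± 0.40, in p2 -1.16 ± 0.40 and in pM -2.17 ± 0.44.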

How the results depend on the processing

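Of the 300 results for single genes (10 genes in 30 comparisons), 41 were called, 20 of these kept the call in all 9 alternatives and 17 also without any 1 library; none reversed. The counts over all genes moved more. With the replicate block as a correlation (0.375), calls were 1333 in WT D5 to D7, 872 in D7 to D9, 842 in NFIAp D9 to D11, 1043 in p2 against p1, 971 in pM against p2, 454 between gates and 463 in the domain difference. In MUT they were 2551, 454 and 297 for the 3 day steps, 423 in p2 against p1 and 1568 in pM against p2, and against WT 11, 37, 28 and 107 at D5, D7, D9 and D11, with 14 in the genotype difference. With an additive replicate block they were 2621 in WT NFIAp D9 to D11, 64 between gates, 2849 in MUT D9 to D11 and 111 in MUT against WT at D5. Most same-numbered libraries deviated together, though not all: 70 of 74 pairs within a genotype had r over 0.1 (lowest 0.007, median 0.703). Between genotypes 84 of 89 did (lowest -0.086, median 0.641). The numbers were not taken as pairs in the main fit, so its p-values leave this shared deviation out. Differently numbered libraries had a median r of -0.502 within a genotype (28 of 134 over 0.1) and -0.555 between genotypes. Deviations were taken from the means of small groups, which pushes these values below 0 when same-numbered libraries deviate together. They are therefore no separate evidence. The positive r of same-numbered pairs is a hint from the data that numbers may mark shared conditions. Among the 10 genes the correlation block ended the calls of Sfrp5 in WT D5 to D7 (adjusted p = 0.077), Axin2, Lef1 and Sp5 in WT D7 to D9 (0.11, 0.064 and 0.080), Axin2 in WT pM D5 to D11 (0.054) and MUT D5 to D7 (0.19), Frzb and Sp5 in MUT D7 to D9 (0.13 and 0.26), Sfrp5 in MUT against WT at D5 (0.90) and Apcdd1 at D11 (0.41) in limma. It added calls for Sp5 in WT pM against p2 (0.020), Sfrp5 between gates (0.048), Sfrp2 in MUT pM against p2 (0.0039), Sfrp1 and Tcf7l2 in MUT p2 against p1 (0.022 and 0.041), Tcf7l2 in WT p1 D5 to D11 (0.044), and Apcdd1, Axin2 and Sp5 in WT D11 p2 and pM against p1 (0.024, 0.021 and 0.0077). The additive block added Sp5 in that comparison (0.043), Tcf7l2 in WT p1 D5 to D11 (0.042), Lef1 in WT p1 D7 to D9 (0.045), Tcf7l1 in MUT D9 to D11 (0.049), Sfrp2 in MUT pM against p2 (0.041) and Apcdd1 in MUT against WT D11 p2 (0.047).

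With only the compared groups, calls were 1357 in WT D7 to D9, 2550 in p1 and 1617 in pM from D5 to D11, 181 in WT p2 against p1, 7 between gates, 363 in MUT D9 to D11, 90 in the domain difference, and 444, 138, 69 and 129 in MUT against WT at D5, D7, D9 and D11. Without the 18 libraries they were 714 in WT NFIAp D9 to D11, 126 in WT p2 against p1, 222 in pM against p2, 8 between gates, 3124 in MUT D5 to D7, 144, 193 and 1529 in MUT against WT at D5, D7 and D11, 182 in the genotype difference and 252 in the domain difference. DESeq2 gave 436 in WT p2 against p1, 130 between gates, 180 in MUT p2 against p1, 800 in pM against p2, and 138, 493 and 222 in MUT against WT at D5, D7 and D9. edgeR gave 13 between gates, no filter 142 in MUT p2 against p1 and 168 in MUT against WT at D9, and a pseudocount of 8 gave 234 in the domain difference. Leaving out 1 library gave 962 to 1785 in WT NFIAp D9 to D11, 2495 to 3517 in p2 and 1834 to 2327 in pM from D5 to D11, 233 to 416 in WT pM against p2, 6 to 73 between gates, 706 to 1782 in MUT D9 to D11, 33 to 88, 210 to 366, 68 to 116 and 339 to 751 in MUT against WT at D5, D7, D9 and D11, 71 to 164 in the genotype difference and 88 to 163 in the domain difference. The cause was not tested.

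DESeq2 gave no value for the domain difference. Without the 18 libraries, or without its lone library, MUT D9 p2 has none, so MUT D7 to D9, D9 to D11, p2 against p1, pM against p2 and MUT against WT at D9 have no value there. Without the 18, each other D9 group holds only 1 library. Sp5 and Apcdd1 were limited by depth in groups near 0 reads.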
